A study of Homo sapiens with 16 samples.

Results

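Replication-dependent histone genes encode the H1 linker histone and the H2A, H2B, H3 and H4 core histones that a cell makes in bulk while it copies its DNA. The genes were taken as every entry of the deposited table whose symbol begins with HIST1H, HIST2H, HIST3H or HIST4H and that had at least 10 estimated counts in at least 4 of the 16 libraries. Of 73 entries with these prefixes, out of 26475 genes in the table, 62 met the rule, and 61 of the 62 passed the filter on low counts and were tested. The counts themselves chose the members, so a member's presence among the 62 is not a result. Among entries near the limit, HIST1H2BI had 10 counts in its 4th-highest library and was kept, while HIST4H4 had 9 and HIST1H2AL had 8 and were left out. Of the 11 entries left out, 4 had no count in any library.

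The RNA came from lung metastases of A375 MA2-Luc, a human melanoma line, grown in NSG mice, a strain that lacks functional lymphocytes, after 250000 cells were injected behind the eye. There were 4 libraries in each of 4 groups: ketogenic diet with inhibitors, ketogenic diet with no treatment, high fat diet with inhibitors, and high fat diet with no treatment. The inhibitors acted against BRAF kinase and MEK 1/2, both in the same treatment, and were delivered by oral gavage over 5 weeks, 3 times in each; the drug names are not given in the labels, nor is a vehicle named for the untreated mice. All libraries were made from poly-A RNA. The labels do not say that each library came from its own mouse, and the series text also speaks of a cultured cell line, so the p-values here measure the spread between libraries.

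Most mRNAs carry a poly-A tail, but replication-dependent histone mRNAs end in a short hairpin, the histone stem-loop, which is cut just downstream with the help of the stem-loop binding protein SLBP and the U7 small nuclear RNP. The mRNAs accumulate in S phase and are degraded when DNA synthesis stops. Some of these genes also make a longer, polyadenylated transcript, which has been described in cells that are differentiating or have stopped dividing. A library made from poly-A RNA therefore sees the polyadenylated transcripts directly, and sees the stem-loop transcripts only as far as they pass the selection.

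DNA windows at the starts of 2 genes are shown because HIST1H2BK and HIST1H1D, an H2B and an H1 gene, were called in opposite directions in high fat libraries with inhibitors, although the call of HIST1H1D was lost under several alternatives. Each runs from 250 bases before to 50 bases after the transcription start (RefSeq, GRCh38.p14, minus strand), at chr6:27146809-27147108 for HIST1H2BK and at chr6:26234938-26235237 for HIST1H1D. Capitals mark matches, on either strand, to the octamer ATTTGCAT, to CCAAT and to TATAAA, and at the left end of the HIST1H2BK window matches on the 2 strands overlap.
HIST1H2BK: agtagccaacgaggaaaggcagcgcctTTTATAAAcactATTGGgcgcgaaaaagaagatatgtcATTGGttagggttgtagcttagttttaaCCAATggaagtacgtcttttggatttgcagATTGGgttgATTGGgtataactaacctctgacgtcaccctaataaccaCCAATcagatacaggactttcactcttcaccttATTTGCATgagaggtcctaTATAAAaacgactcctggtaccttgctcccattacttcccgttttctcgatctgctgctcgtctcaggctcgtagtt
HIST1H1D: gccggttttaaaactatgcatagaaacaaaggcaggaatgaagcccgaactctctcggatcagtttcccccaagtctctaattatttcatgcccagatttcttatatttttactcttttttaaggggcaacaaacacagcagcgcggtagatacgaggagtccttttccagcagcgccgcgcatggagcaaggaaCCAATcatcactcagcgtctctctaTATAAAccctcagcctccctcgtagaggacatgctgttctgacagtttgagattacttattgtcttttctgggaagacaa
The HIST1H2BK window held all 3 motifs, while the HIST1H1D window held CCAAT and TATAAA without the octamer. Of the 62 members, 56 had an entry among the promoters. The octamer was in 39.3% of those 56 windows, against 1.77% of all 35116 promoters, and it was found in 75.0% of H2B and 64.3% of H2A windows, in 9.09% of H3 windows, and in none of the H1 and H4 windows. CCAAT was in 85.7% of member windows and in 34.6% of all promoters, with every H1, H2A, H2B and H3 window holding it and 20% of H4 windows. TATAAA was in 64.3% of member windows, against 11.5% of all promoters. A match is a description of letters and not of a bound factor.

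The 3′ sites are shown because the stem-loop sets how the mRNA ends. A hairpin of 6 paired bases around a 4-base loop was found in an annotated transcript (GENCODE) of 27 of 60 protein-coding members. The stem had to begin with GG and the loop with TT. Many of the members with no site, most H1 genes among them, have transcripts that stop at the coding end in this annotation. A missing site is therefore not a sign that the gene lacks the stem-loop. Each line gives the stem in capitals, the loop in lower case between its arms, and 5 bases on either side.
HIST2H2BE: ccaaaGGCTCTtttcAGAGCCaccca
HIST1H2AC: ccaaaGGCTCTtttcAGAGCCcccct
HIST1H2BD: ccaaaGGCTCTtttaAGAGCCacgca
HIST2H3A: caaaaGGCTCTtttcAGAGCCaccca
HIST2H4A: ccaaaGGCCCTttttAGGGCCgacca
HIST1H4I: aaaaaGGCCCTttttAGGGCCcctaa
HIST1H4E: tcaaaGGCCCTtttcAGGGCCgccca
The stem GGCTCT with AGAGCC was in H2A, H2B and H3 members, and the stem GGCCCT with AGGGCC was in H4 members. In 19 of the 27 members an annotated transcript ran on for more than 100 bases after the hairpin, by 1729 bases in HIST2H2BE and by 212 bases in HIST1H4I. HIST1H2BK and HIST1H1D reach only to the end of their coding sequence in GENCODE, so a site could not be read. In RefSeq the 2 genes span 8566 and 776 bases.

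Of the 62 members, 5 encode H1, 15 H2A, 18 H2B, 12 H3 and 12 H4. The HIST1 cluster on chromosome 6 holds 47, and the HIST2 and HIST3 clusters on chromosome 1 hold 13 and 2. In the annotation 60 were protein coding, and HIST2H2BA and HIST2H2BC were transcribed pseudogenes. HIST2H2AA3 and HIST2H2AA4, HIST2H3A and HIST2H3C, and HIST2H4A and HIST2H4B are near-identical copies with the same estimated counts in every library, so the 62 members hold 59 distinct sets of values and the level of either copy is uncertain. HIST2H4A also overlaps HIST2H3C on the opposite strand, and the strand setting of the counting is not given in the sources used here.

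A list of 5 members described as making polyadenylated transcripts, HIST1H1C, HIST1H2AC, HIST1H2BD, HIST1H2BK and HIST2H2BE, is given apart from the other 57. Levels are counts per 1000000 (CPM) on library sizes scaled by the TMM method. Per kilobase of coding sequence, HIST1H2BK averaged 26.4 CPM over the 16 libraries, HIST2H2BE 24.4, HIST1H1C 14.3, HIST2H4A and HIST2H4B 12.8 each, HIST2H2AA3 and HIST2H2AA4 12.7 each, HIST1H2AC 9.64 and HIST1H2BD 8.78. The 3 members highest in CPM, HIST1H2BK, HIST2H2BE and HIST1H1C, held 11.5%, 10.6% and 10.5% of the members' summed CPM, and the lowest mean of any member was 0.0908 CPM, that of HIST1H2BI. Of 12 pairs of neighbouring members read in opposite directions, 8 differed by less than 3-fold in mean CPM and 4 by more than 10-fold. Among the 4, HIST1H2BK averaged 9.99 CPM, while HIST1H2AH, which starts 330 bases away on the other strand, averaged 0.191 CPM, and HIST2H2BE averaged 9.20 CPM while HIST2H2AC, 322 bases away, averaged 0.818 CPM. HIST3H2A averaged 3.13 CPM and HIST3H2BB, 233 bases away, 0.253 CPM. In the pair 218 bases apart the H2A gene HIST1H2AC was the higher, at 3.76 CPM, with HIST1H2BC at 0.371 CPM.

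The libraries held 37099876 to 77251525 estimated counts each. Ribosomal RNA took 4.10 to 8.37% of counts in ketogenic libraries with inhibitors, 15.2 to 33.7% in ketogenic libraries without, 15 to 20% in high fat libraries with inhibitors and 21.7 to 50% in high fat libraries without. Small RNAs made without a poly-A tail, RN7SK, RMRP and RPPH1, summed to 7.54 to 1192 CPM. They were highest in 5 libraries: ketogenic with inhibitors replicate 4, ketogenic without inhibitors replicates 1 and 2, and high fat without inhibitors replicates 2 and 3, at 126 CPM or more, against at most 81.3 CPM in the other 11. The melanocyte lineage genes SOX10, at 726 to 934 CPM, and MITF, at 99.2 to 141 CPM, were present in every library, while MLANA reached at most 0.799 CPM and TYR at most 3.94 CPM. Of genes used as markers of other cells, CD68 was at 28.7 to 68.7 CPM, CORO1A reached 7.73 CPM, LYZ 4.76 CPM, and AGER was at 1.09 to 2.8 CPM. MS4A1 and MPO, which mark B cells and myeloid cells, had no count in any library, and the lung surfactant gene SFTPC had at most 0.0433 CPM. A lower level in bulk RNA can reflect fewer cells of a type or less RNA per cell, which cannot be told apart here.

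The 62 members summed to 128, 35.6, 41.8 and 159 CPM in ketogenic libraries with inhibitors, against 67.3, 143, 44.1 and 61.1 CPM in ketogenic libraries without. High fat libraries summed to 66.7, 61.3, 84.5 and 78.1 CPM with inhibitors, against 68.4, 114, 158 and 74.0 CPM without. All 4 groups overlapped, and high fat libraries with inhibitors were the closest together, with an SD of 10.5 CPM against 61.9, 43.7 and 41.7 CPM in ketogenic libraries with inhibitors, ketogenic libraries without and high fat libraries without.

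The 5 members of the polyadenylated list and the other 57 split the libraries in different ways. The 57 summed to 47.6, 16.2, 19.1 and 93.1 CPM in ketogenic libraries with inhibitors, against 46.8, 114, 24.4 and 32.6 CPM in ketogenic libraries without. They summed to 33.7, 32.3, 42.2 and 42.0 CPM in high fat libraries with inhibitors, against 40.0, 80.7, 119 and 34.8 CPM in high fat libraries without. Of the 5 libraries highest in RN7SK, RMRP and RPPH1, 4 were also among the 5 highest in the 57 members. The polyadenylated list summed to 80.2, 19.3, 22.7 and 66.1 CPM in ketogenic libraries with inhibitors, against 20.5, 28.4, 19.7 and 28.4 CPM in ketogenic libraries without. In high fat libraries the list summed to 33.0, 29, 42.2 and 36.1 CPM with inhibitors, against 28.4, 33.4, 39.5 and 39.2 CPM without. Its highest and its lowest library were both ketogenic with inhibitors, replicates 1 and 2.

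**Figure D1:**
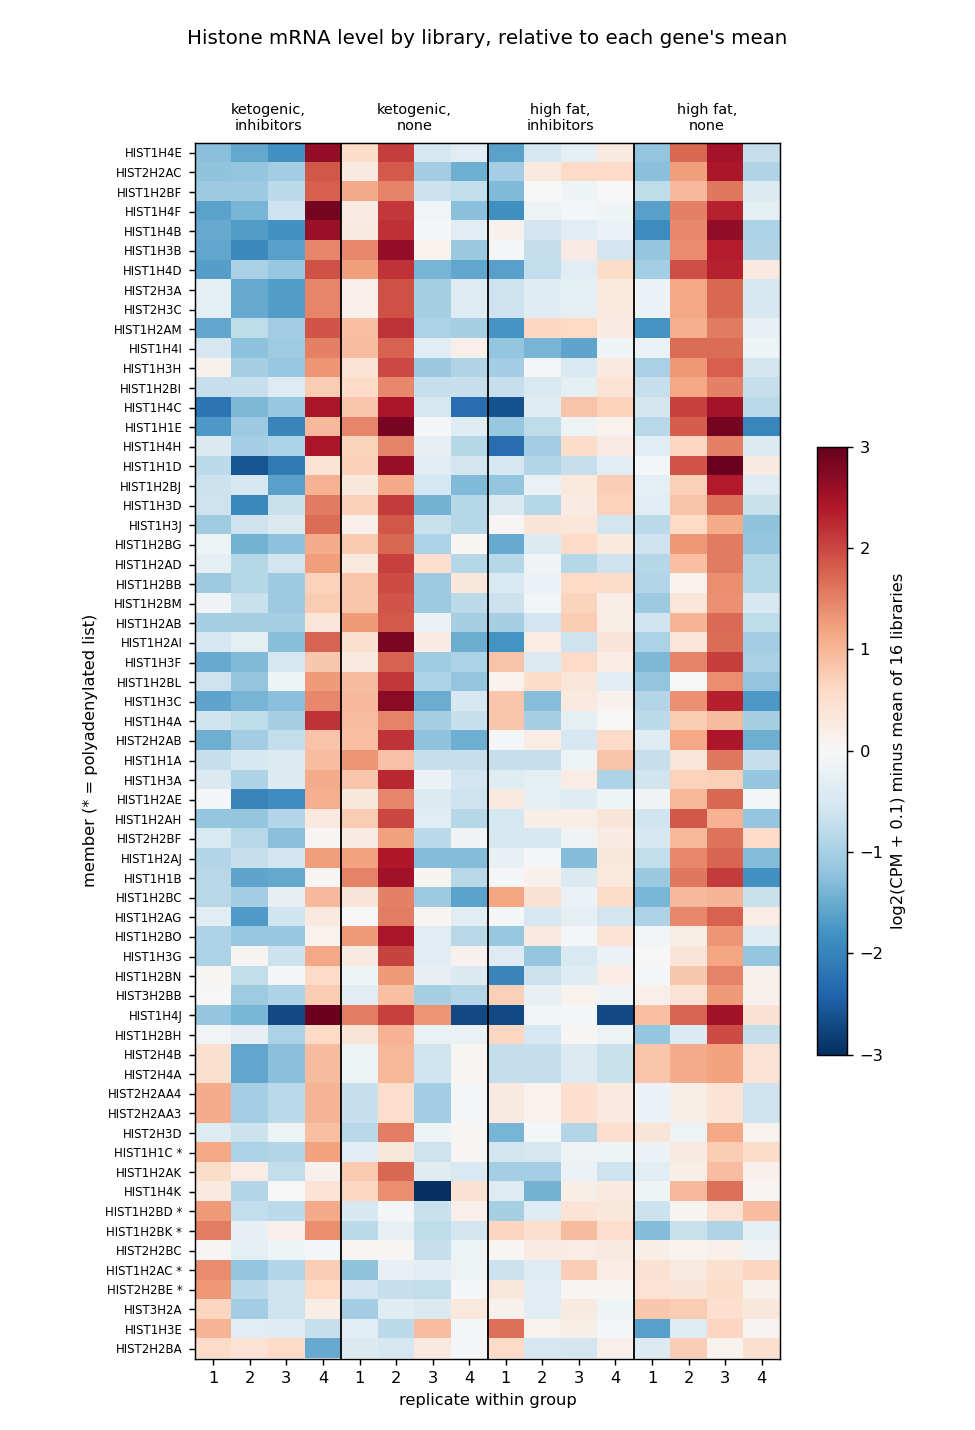
Level of each of the 62 members (rows) in each of the 16 libraries (columns, grouped by diet and treatment), as log2(CPM + 0.1) minus the gene's mean over all libraries; an asterisk marks the 5 members of the polyadenylated list and genes run from the highest to the lowest correlation with RN7SK, RMRP and RPPH1 within groups. Ketogenic with inhibitors replicate 4, ketogenic without inhibitors replicate 2 and high fat without inhibitors replicates 2 and 3 stand out as dark columns over most genes, and the asterisked genes sit towards the bottom.

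On the high fat diet, libraries with inhibitors had more HIST1H2BK mRNA and less HIST1H1D, HIST2H4A, HIST2H4B and HIST1H4I mRNA than libraries without. Of the 61 tested members 1 rose and 4 fell (edgeR quasi-likelihood test, adjusted p under 0.05), while 20.6% of all 16012 genes tested rose and 21.7% fell, so the members' share was below the background in both directions. A further 4 passed only at an unadjusted p under 0.05, making 9. The members' fold changes were mostly negative, 54 of 61, with a median log2 fold change of −1.0 against −0.03 over all genes, but with a median SE of 0.99 against 0.17. Leaving out 1 library at a time gave 3 to 7 called members, with 33.5 to 46.9% of all genes called. Without replicate 3 of the high fat libraries without inhibitors the median was −0.38 with 19 of 61 positive, and without the 3 libraries above 30% ribosomal RNA it was 0.67 with 40 of 59 positive.

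HIST1H2BK, which encodes an H2B of the HIST1 cluster (chr6:27146418-27146798), stood at 13.3, 11.9, 16.4 and 12.3 CPM in high fat libraries with inhibitors, against 3.38, 5.26, 4.50 and 6.91 CPM in high fat libraries without. Every library with inhibitors was above every one without. The log2 fold change was 1.42 with an SE of 0.33 (edgeR adjusted p = 0.00311), and the log2 fold change stayed between 1.27 and 1.62, with an edgeR adjusted p of at most 0.0124, when any 1 library was left out.

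HIST1H1D encodes the linker histone H1.3 (chr6:26234268-26234933). It had 0.673, 0.507, 0.591 and 0.781 CPM in high fat libraries with inhibitors, against 0.964, 4.01, 8.64 and 1.24 CPM in those without. The groups did not overlap, but replicates 2 and 3 without inhibitors lay far above the other 2. Its log2 fold change was −2.53 with an SE of 0.91 (edgeR adjusted p = 0.0363), and it was not called in 6 of the 16 fits that left out 1 library, with values of −2.85 to −1.68. It was not called with the RN7SK, RMRP and RPPH1 level as a covariate (−0.65, edgeR adjusted p = 0.260), and with ribosomal RNA share as covariate its direction turned (0.18, edgeR adjusted p = 0.848). The ribosomal RNA share did not overlap between these groups, so that last fit cannot separate it from the treatment.

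HIST2H4A and HIST2H4B encode the same H4 protein and share one set of values. Each was at 2.00, 2.00, 2.47 and 2.07 CPM in high fat libraries with inhibitors, against 6.05, 7.41, 7.80 and 4.58 CPM in those without, with no overlap. The log2 fold change was −1.60 with an SE of 0.47 (edgeR adjusted p = 0.0134), and it was called in all 16 fits that left out 1 library, with values of −1.73 to −1.48. With the summed level of RN7SK, RMRP and RPPH1 as a covariate it was −1.09 with an SE of 0.38 (edgeR adjusted p = 0.0307).

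HIST1H4I, an H4 gene named after its values were seen, had 0.0727, 0.0507, 0.0319 and 0.260 CPM in high fat libraries with inhibitors, against 0.253, 1.17, 1.17 and 0.262 CPM in those without. Replicate 4 with inhibitors lay among the untreated libraries. Its log2 fold change was −2.73 with an SE of 0.93 (edgeR adjusted p = 0.0260), and it was not called with the RN7SK, RMRP and RPPH1 level as a covariate (−1.22, edgeR adjusted p = 0.0759).

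The remaining members of the polyadenylated list did not pass the test on the high fat diet. HIST2H2BE, an H2B gene, had 10.7, 6.63, 8.73 and 8.82 CPM with inhibitors, against 11.4, 11.2, 12.4 and 9.34 CPM without (log2 fold change −0.34, edgeR adjusted p = 0.445). HIST1H1C, which encodes H1.2, had 5.53, 5.75, 7.58 and 7.35 CPM with inhibitors, against 7.22, 9.85, 13.9 and 12.0 CPM without (log2 fold change −0.71, SE 0.43, edgeR adjusted p = 0.190). For HIST1H2AC and HIST1H2BD the log2 fold changes were −0.39 and −0.36. The list's median was −0.36, with 1 of 5 positive, and the median of the other 56 tested was −1.08, with 6 of 56 positive.

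By class, the 12 H4 members had the lowest median on the high fat diet, −1.70 on the log2 scale, with 12 of 12 negative and 3 called. With the RN7SK, RMRP and RPPH1 level as a covariate the H4 median was 0.38 with 5 of 12 negative, but this level itself averaged lower with inhibitors, which favours an upward move. The medians of H1, H2A, H2B and H3 were −1.21, −0.97, −0.46 and −0.92. In H2A, HIST1H2AG and HIST1H2AK had log2 fold changes of −1.51 and −2.26 that missed the threshold (edgeR adjusted p = 0.0756 and 0.0786). The H2B gene HIST2H2BF was at −1.08 (edgeR adjusted p = 0.0686), and the H2A gene HIST3H2A, without overlap between groups, was at −0.63 (edgeR adjusted p = 0.139). In all, the groups did not overlap for 6 of 61 members, or 9.84%, against 44.7% of all genes tested, of which 20.6% were called higher and 21.7% lower.

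**Figure D2:**
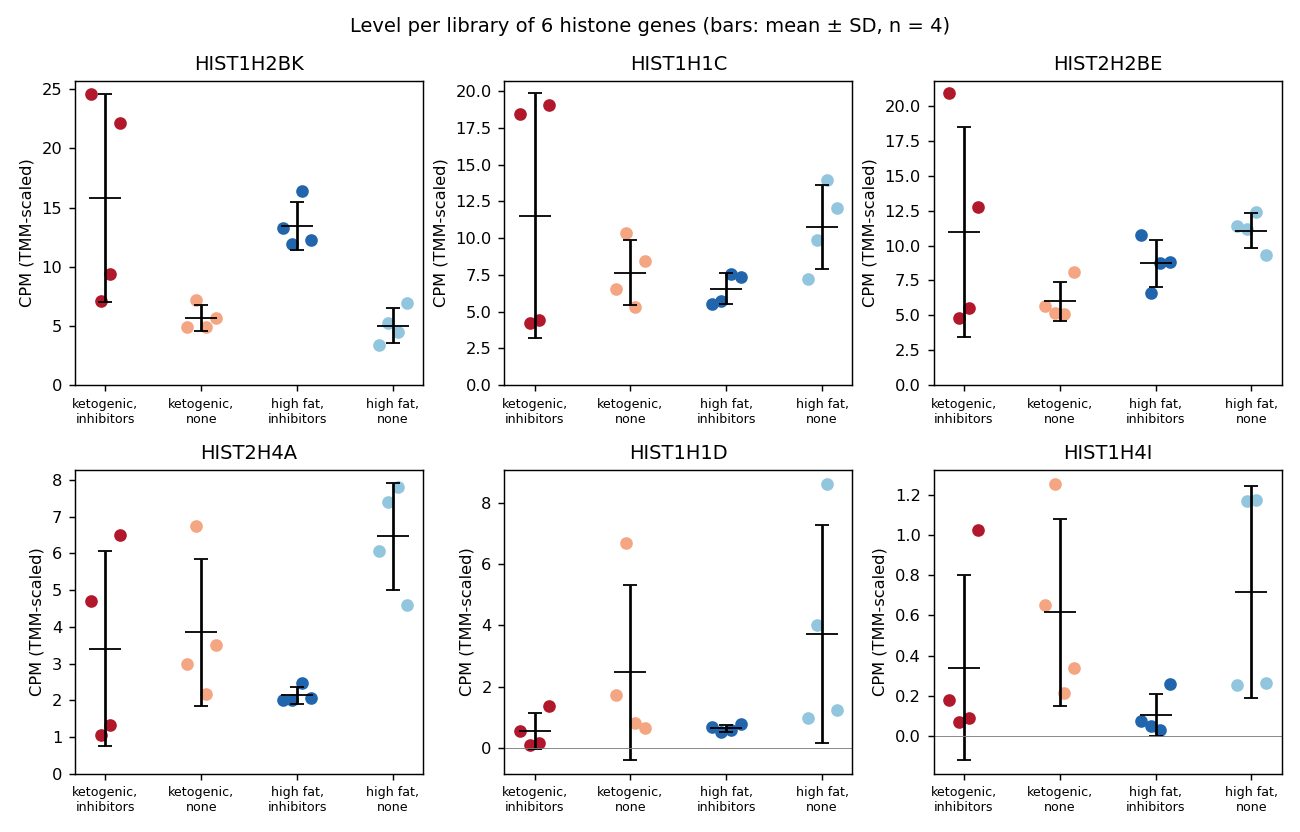
CPM on TMM-scaled library sizes (vertical axes) of 6 histone genes in each library (points) of the 4 groups, with the mean and SD (n = 4). HIST1H2BK is higher with inhibitors on the high fat diet, at 11.9 to 16.4 CPM against 3.38 to 6.91 CPM, and HIST2H4A is lower there, at 2.00 to 2.47 CPM against 4.58 to 7.80 CPM.

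Several other measurements moved with this comparison. The sum of RN7SK, RMRP and RPPH1 was 24.5, 48.9, 70.4 and 81.3 CPM in high fat libraries with inhibitors, against 45.7, 477, 1192 and 79.8 CPM in those without. Individually RN7SK, RMRP and RPPH1 had log2 fold changes of −3.0, −3.02 and −2.94 and were not called (edgeR adjusted p = 0.0909, 0.104 and 0.107). The summed small nucleolar and Cajal body RNAs, 411 genes, were at 17.8, 36.4, 50.6 and 45.8 CPM with inhibitors, against 38.5, 189, 543 and 55.4 CPM without. The 7 endothelial markers summed to 71.9 to 82.3 CPM with inhibitors, against 16.7 to 35.8 CPM without, of which KDR averaged 75.1 CPM with inhibitors and 21.8 CPM without, and 5 of the 7 stayed under 1 CPM in every library. The 8 leukocyte markers summed to 6.67 to 8.58 CPM with inhibitors, against 0.822 to 1.84 CPM without, with no overlap, and 2 of the 3 tested rose. CORO1A, an actin-binding protein of leukocytes, averaged 5.28 CPM with inhibitors and 0.808 CPM without. MS4A1 was at 0, and 6 of the 8 stayed under 1 CPM in every library. The part of these marker genes in the histone results was not tested.

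On the ketogenic diet, HIST1H2BK was the member that rose with inhibitors and no member fell. The 1 member called of 61 compares with 0.856% of all genes higher and 0.887% lower, and 5 members passed at an unadjusted p under 0.05. HIST1H2BK stood at 24.6, 7.11, 9.42 and 22.1 CPM in ketogenic libraries with inhibitors, against 4.87, 7.21, 4.93 and 5.67 CPM in those without. Replicates 1 and 4 with inhibitors were the highest, and replicate 2 with inhibitors was just below replicate 2 without. The log2 fold change was 1.48 with an SE of 0.33 (edgeR adjusted p = 0.0339), and it was not called in 7 of the 16 fits that left out 1 library, with values of 1.18 to 1.72. The inhibitor effects on the 2 diets differed by 0.06 with an SE of 0.46 (edgeR adjusted p = 0.953).

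The 5 members of the polyadenylated list were all positive on the ketogenic diet, with a median log2 fold change of 0.87, against −0.63 for the other 56 tested and 0.01 over all genes. With limma voom the list had a median of −0.16 with 2 of 5 positive, and without replicate 1 of the ketogenic libraries with inhibitors a median of 0.37. The median over all 61 members, −0.57, was 0.24 without replicate 2 of the ketogenic libraries without inhibitors, −2.1 without replicate 4 of those with inhibitors, and −1.63 with limma voom. HIST1H1C had 18.4, 4.23, 4.41 and 19.0 CPM with inhibitors, against 6.54, 10.3, 5.28 and 8.44 CPM without. HIST2H2BE had 20.9, 4.84, 5.49 and 12.8 CPM with inhibitors, against 5.66, 5.17, 5.06 and 8.08 CPM without (log2 fold change 0.88, SE 0.35, edgeR adjusted p = 0.197). In both, replicates 1 and 4 with inhibitors were above all libraries without, and replicates 2 and 3 were among them or below. HIST1H2AC had 9.07, 1.43, 1.76 and 5.56 CPM with inhibitors, against 1.38, 2.82, 2.61 and 2.96 CPM without, and HIST1H2BD had 7.22, 1.72, 1.63 and 6.62 CPM, against 2.06, 2.83, 1.79 and 3.27 CPM. The same split of replicates was seen in HIST2H2AA3, an H2A gene outside the list, at 9.79, 2.13, 2.50 and 9.17 CPM with inhibitors, against 2.72, 6.43, 2.12 and 4.27 CPM without.

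HIST1H1D had 0.540, 0.0861, 0.154 and 1.37 CPM in ketogenic libraries with inhibitors, against 1.72, 6.70, 0.799 and 0.655 CPM in those without, and was not called (log2 fold change −2.19, SE 0.91, edgeR adjusted p = 0.216). HIST2H4A had 4.71, 1.07, 1.34 and 6.51 CPM with inhibitors, against 2.99, 6.75, 2.18 and 3.49 CPM without (log2 fold change −0.18, edgeR adjusted p = 0.876). The difference between diets in its inhibitor effect was 1.42 with an SE of 0.66, and it did not pass over all genes (edgeR unadjusted p = 0.0461, adjusted p = 0.167). HIST1H4I was at 0.180, 0.0688, 0.0879 and 1.02 CPM with inhibitors, against 0.650, 1.25, 0.214 and 0.340 CPM without (log2 fold change −0.85, edgeR adjusted p = 0.625). The most negative values on the ketogenic diet were in HIST1H2BO, −3.32, and HIST1H1B, −2.96 (edgeR adjusted p = 0.155 and 0.192), genes of an H2B and of H1.5.

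**Figure D3:**
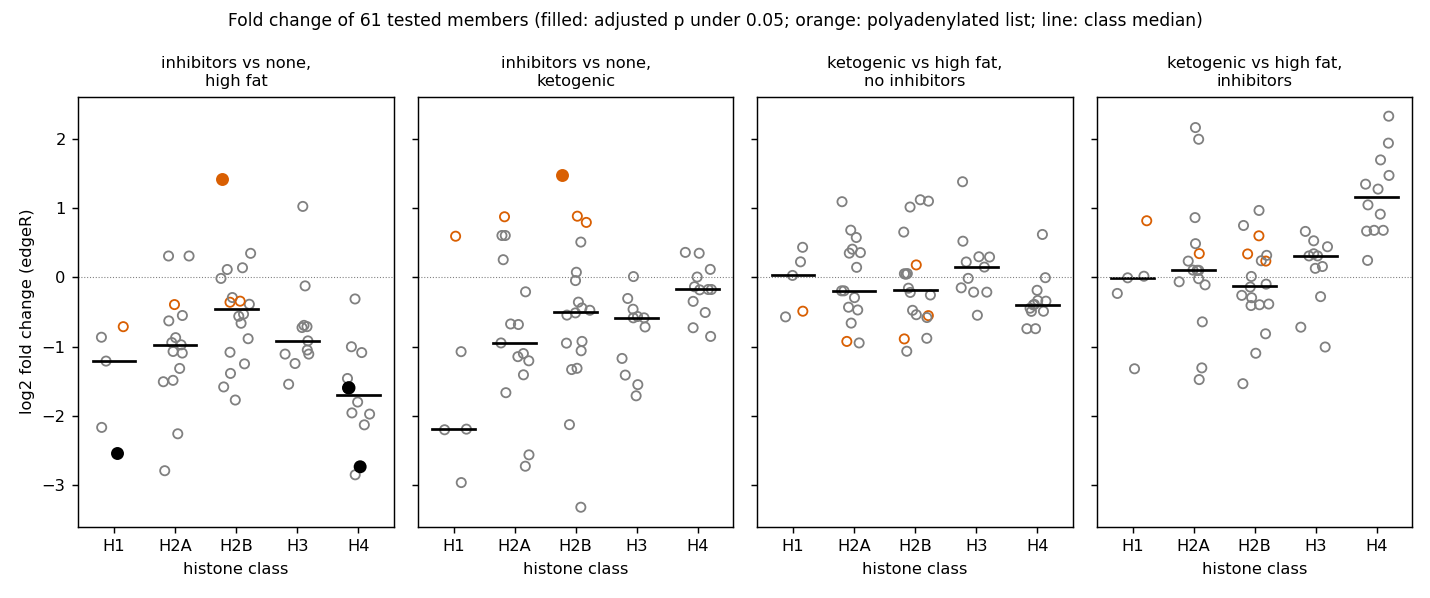
log2 fold change (vertical axis) of the 61 tested members by histone class in 4 comparisons, with filled points for an edgeR adjusted p under 0.05, orange for the polyadenylated list and a line at the class median. On the high fat diet all 12 H4 members lie below 0 with a median of −1.70, while on the ketogenic diet the 5 orange points lie above 0 with a median of 0.87.

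The 2 diets were also compared directly. Without inhibitors, no member was called in ketogenic against high fat libraries by edgeR, against 13.5% of all genes, and 2 members passed at an unadjusted p under 0.05; DESeq2 called 2, both lower (19.7% of all genes), and limma voom with quality weights called 6, all lower (39.9%). With the RN7SK, RMRP and RPPH1 level as a covariate edgeR called 6, all higher (18.4%), and with ribosomal RNA share as covariate 2, both higher (10.9%). HIST2H2BE was at 5.66, 5.17, 5.06 and 8.08 CPM in ketogenic libraries, against 11.4, 11.2, 12.4 and 9.34 CPM in high fat libraries, without overlap (log2 fold change −0.89, SE 0.35, edgeR adjusted p = 0.099). HIST1H2AC was at 1.38, 2.82, 2.61 and 2.96 CPM in ketogenic libraries, against 4.55, 4.03, 4.67 and 5.25 CPM in high fat libraries, also without overlap (log2 fold change −0.93, edgeR adjusted p = 0.201). HIST3H2A was at 1.36, 2.23, 2.12 and 3.64 CPM in ketogenic libraries, against 5.17, 4.94, 4.16 and 3.69 CPM in high fat libraries, also without overlap (log2 fold change −0.95, SE 0.34, edgeR adjusted p = 0.070). These were the 3 members of 61 without overlap, or 4.92%, against 25.5% of all genes tested, of which 13.5% were called.

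With inhibitors, no member was called in ketogenic against high fat libraries by edgeR, DESeq2 or limma voom, and none passed edgeR at an unadjusted p under 0.05. Of all genes 0.169% were called by edgeR, 2.15% by DESeq2 and 6.6% by limma voom. The 12 H4 members had a median log2 fold change of 1.16, all positive, against 0.23 over the 61 members and 0.02 over all genes, but this direction did not hold in every fit. Without replicate 4 of the ketogenic libraries with inhibitors the H4 median was −1.33 with 4 of 12 positive and the median over the members −1.13, and with limma voom the H4 median was −0.91 with 1 of 12 positive and the median over the members −1.17. Their summed level was 11.6, 3.43, 4.39 and 36.8 CPM in ketogenic libraries with inhibitors, against 5.57, 6.22, 9.40 and 8.67 CPM in high fat libraries with inhibitors, so the ketogenic libraries lay on both sides. The difference between diets in the inhibitor effect was called for no member by edgeR, DESeq2 or limma voom, with 4 passing edgeR at an unadjusted p under 0.05. Of all genes 9.02% were called by edgeR, 15.5% by DESeq2 and 32.5% by limma voom. The comparisons share groups, so their values for a member are not independent of each other.

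Across the 16 libraries, the level of most members followed the summed level of RN7SK, RMRP and RPPH1, RNAs that have no poly-A tail. Correlations were computed on log2(CPM + 0.1) for each member against this sum and against the ribosomal RNA share, 124 in all, with permutation p-values adjusted over the 124. Of the 57 members outside the polyadenylated list, 49 had an adjusted permutation p under 0.05, with a median Pearson r of 0.798 over the 16 libraries and 0.854 within groups. Of the 5 members of the list none did by Pearson r, with a median r of 0.278 over the 16 libraries and 0.428 within groups, while HIST1H1C passed by Spearman rho. The points share library size and scaling, and a measure within a library is not independent of another from the same library. The rule needs 10 counts in only 4 libraries, as in HIST1H2BI and HIST1H2AD. Members at low level could therefore enter through a few high libraries, which favours a correlation with whatever is high there. The share of all genes that follow the sum was not computed.

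HIST1H4E, an H4 gene, had 0.147, 0.103, 0.0659 and 3.52 CPM in ketogenic libraries with inhibitors, against 0.758, 2.37, 0.312 and 0.364 CPM in ketogenic libraries without. It had 0.0909, 0.304, 0.383 and 0.602 CPM in high fat libraries with inhibitors, against 0.158, 1.82, 3.23 and 0.262 CPM in high fat libraries without. Its Pearson r with the sum was 0.931 (permutation p = 1e-05, adjusted p = 0.000113) and its Spearman rho 0.903 (permutation p = 1e-05, adjusted p = 0.000248), where 1e-05 is the smallest p these permutations can give. Without the 2 libraries farthest from the median r was 0.90, and within groups it was 0.992. For HIST1H1D r was 0.929 and rho 0.876, with 0.878 after leaving out the 2 libraries and 0.903 within groups. For HIST2H4A r was 0.750 (permutation p = 0.00088, adjusted p = 0.00273) and rho 0.727 (permutation p = 0.00188), with 0.643 after leaving out the 2 libraries and 0.695 within groups.

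HIST1H2BK had an r of −0.264 with the sum (permutation p = 0.324, adjusted p = 0.352) and 0.428 within groups. With the ribosomal RNA share its r was −0.562 (permutation p = 0.0238, adjusted p = 0.0448) over 16 libraries and 0.228 within groups, so the pooled relation did not hold within groups. HIST1H1C had an r of 0.525 with the sum (permutation p = 0.0366, adjusted p = 0.0574) and a rho of 0.597 (permutation p = 0.0155, adjusted p = 0.0306). HIST2H2BE had an r of 0.173. Outside the list, HIST2H2BA and HIST1H3E had negative r, −0.385 and −0.199. A low r was also seen outside the list in HIST2H2AA3, HIST2H2BC and HIST3H2A, at 0.377, 0.329 and 0.310 (permutation test, adjusted p = 0.186, 0.249 and 0.275). With the ribosomal RNA share 24 of the 57 passed, with a median r of 0.513 over the 16 libraries and 0.699 within groups.

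All 5 libraries highest in RN7SK, RMRP and RPPH1 were above all of the other 11 in 22 members, and above the median of the 11 in 48 members. Members at low level can meet the rule through these libraries alone, which favours such a separation, and its share over all genes was not computed. The summed H3 level showed this separation, at 7.08 to 23.2 CPM in the 5 libraries and 1.52 to 5.68 CPM in the 11. HIST1H3B, an H3 gene of the 57, had 0.0982, 0.0516, 0.0879 and 1.49 CPM in ketogenic libraries with inhibitors, against 1.47, 3.5, 0.526 and 0.170 CPM in ketogenic libraries without. In high fat libraries it had 0.455, 0.254, 0.591 and 0.293 CPM with inhibitors, against 0.158, 1.45, 2.90 and 0.210 CPM without. Within each of the 3 groups that hold any of the 5, those libraries were the group's highest in HIST1H3B.

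**Figure D4:**
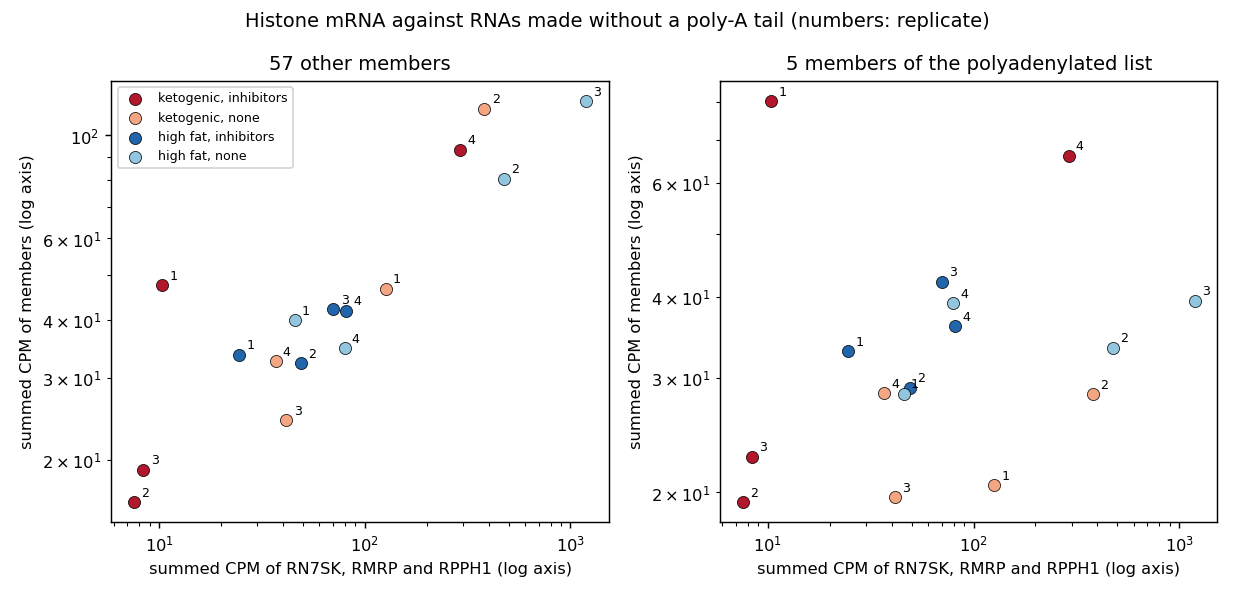
Summed CPM of the members (vertical, log axis) against the summed CPM of RN7SK, RMRP and RPPH1 (horizontal, log axis) in each library, for the 57 members outside the polyadenylated list (left) and the 5 in it (right), with the replicate number beside each point. On the left the 5 libraries at 126 CPM or more on the horizontal axis lie at 46.8 to 119 CPM, against 16.2 to 47.6 CPM in the rest, and on the right they lie at 20.5 to 66.1 CPM, within the 19.3 to 80.2 CPM of the rest.

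The fits were repeated with the log2 sum of RN7SK, RMRP and RPPH1 as a covariate, an alternative added after the data were seen. This sum averaged 56.3 CPM in high fat libraries with inhibitors and 448.7 CPM in those without. In ketogenic libraries it averaged 79.1 CPM with inhibitors and 146.7 CPM without. Most members rose with the sum, so an upward move of their fold changes was largely set beforehand, also for ketogenic against high fat libraries without inhibitors. Neither that move nor a member called higher only in this fit is a result about the inhibitors or the diet. On the high fat diet 10 of 61 members were then called, 8 higher and 2 lower, against 43.2% of all genes, with 44 positive and 17 negative and a median log2 fold change of 0.76, against −1.0 without the covariate. HIST1H2BK was at 1.62 with an SE of 0.34 (edgeR adjusted p = 0.00176), and HIST2H2AC, an H2A gene, at 1.61 with an SE of 0.36 (edgeR adjusted p = 0.00237). The H2B genes HIST1H2BB, HIST1H2BC and HIST1H2BL were at 2.92, 2.24 and 3.48, the H3 genes HIST1H3F and HIST1H3J at 2.09 and 1.96, and the H4 gene HIST1H4B at 1.91. HIST2H4A and HIST2H4B were the 2 that fell, and HIST1H1D and HIST1H4I were not called. On the ketogenic diet HIST1H2BK was again the only member called, against 3.81% of all genes, at 1.67 with an SE of 0.34 (edgeR adjusted p = 0.0211), and the median over the members was 0.40.

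Leaving out the 5 libraries highest in the sum, a choice also made after the data were seen, left 49 members tested and 3 called on the high fat diet, against 28.8% of all genes, all higher: HIST1H2BC at 2.29, HIST1H2BL at 6.21 and HIST1H3F at 2.68. These members averaged 0.371, 0.197 and 0.360 CPM over the 16 libraries, and HIST1H2BL reached 10 counts in 6 of them. At such levels a few counts can give a large fold change. Only replicates 1 and 4 of the high fat libraries without inhibitors remained in this fit. The median over the 49 members was 0.63. HIST1H2BK was at 1.37 on both diets and was not called in either (edgeR adjusted p = 0.0513 on the high fat and 0.412 on the ketogenic diet). With the log2 ribosomal RNA share as the covariate 7 members were called on the high fat diet, against 30.3% of all genes, all higher, with a median of 1.63, and HIST1H2BK was at 1.64 (edgeR adjusted p = 0.00905). In high fat libraries that share was 15 to 20% with inhibitors and 21.7 to 50% without, and the ketogenic groups did not overlap in it either. A fit with this covariate therefore cannot separate the share from the treatment. With the 3 libraries above 30% ribosomal RNA left out, HIST1H2BK was the 1 member of 59 called on the high fat diet, against 23.6% of all genes, at 1.37 (edgeR adjusted p = 0.0428), and it was at 1.61 on the ketogenic diet (edgeR adjusted p = 0.112).

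**Figure D5:**
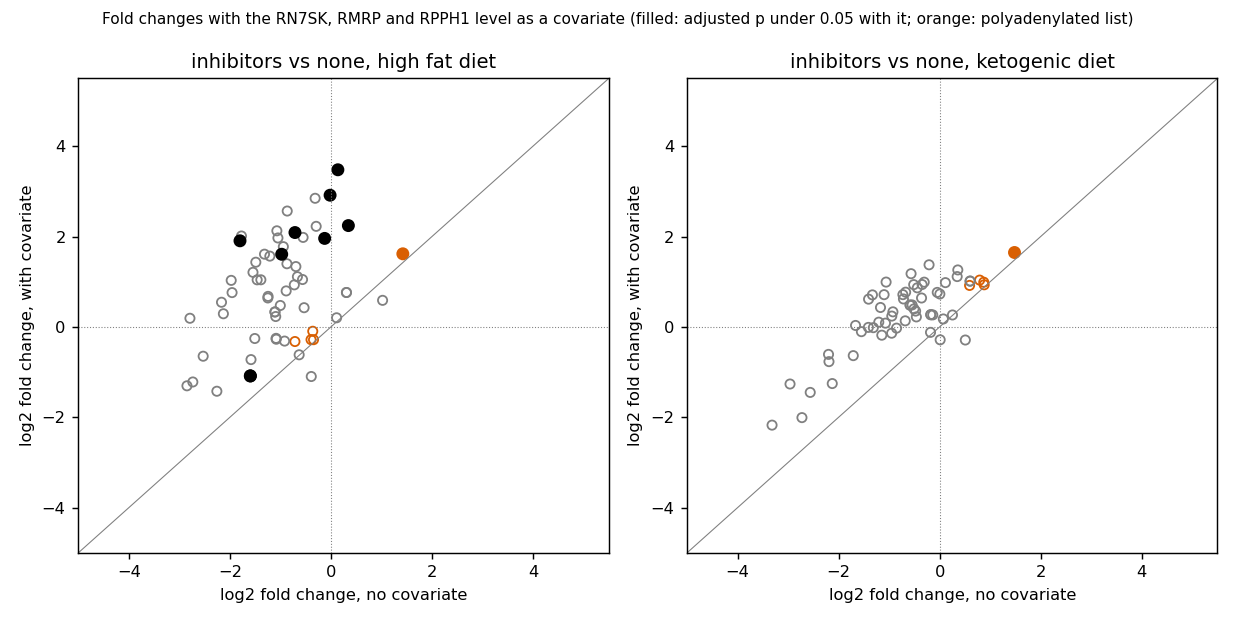
log2 fold change of each tested member with the log2 level of RN7SK, RMRP and RPPH1 as a covariate (vertical axis) against that without it (horizontal axis), inhibitors against none on each diet, with filled points for an edgeR adjusted p under 0.05 with the covariate and orange for the polyadenylated list. Most points lie above the diagonal, the median moving to 0.76 with the covariate against −1.0 without it on the high fat diet, while HIST1H2BK stays at 1.62 against 1.42. The covariate itself averaged lower with inhibitors on each diet, which favours this upward move.

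Genes that act with the histone genes were taken from 5 lists. With inhibitors in high fat libraries, 19 of the 20 S phase genes, such as those of the MCM helicase, rose and none fell, with a median log2 fold change of 1.30. Their sum was 1662, 2092, 1783 and 1997 CPM with inhibitors, against 857, 876, 791 and 586 CPM without, with no overlap, while the histone members' sums overlapped. Without the 5 libraries highest in RN7SK, RMRP and RPPH1, 19 of the 20 still passed, at a median of 1.37. Of 15 mitosis genes 7 rose and none fell, with a median of 1.01. Of 22 histone chaperones and carriers 15 rose and 2 fell, beside the 20.6% and 21.7% of all genes. HAT1, which acetylates newly made H4, rose by 1.18 with an SE of 0.16 (edgeR adjusted p = 7.9e-05), and ASF1A, a chaperone of H3 and H4, rose by 1.29 with an SE of 0.17 (edgeR adjusted p = 5.8e-05).

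Of 18 genes of histone transcription and 3′ processing, 3 rose and 5 fell, with a median of 0.10, and these shares are near the 20.6% and 21.7% of all genes called higher and lower. SLBP, which binds the stem-loop, had 63.4, 72.9, 61.5 and 67.2 CPM in high fat libraries with inhibitors, against 48.3, 47.3, 45.3 and 32.2 CPM in those without, and rose by 0.61 with an SE of 0.13 (edgeR adjusted p = 0.00164). ZNF473, a zinc finger protein of the U7 processing machinery, fell by 0.53 on the log2 scale (edgeR adjusted p = 0.00104). CSTF2, a subunit of the cleavage stimulation factor, rose by 0.55 (edgeR adjusted p = 0.00436). NPAT, the cyclin E/CDK2 substrate that activates histone transcription, was named outside the rule and had a log2 fold change of 0.50 (edgeR adjusted p = 0.0165). SLBP, CSTF2 and NPAT are the 3 that rose, while of the 5 that fell only ZNF473 is given here.

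Of 11 tested genes on a list of histone variants, 5 rose and 2 fell on the high fat diet, where 20.6% of all genes rose and 21.7% fell. How the mRNAs of these genes end, H2AFX among them, was not examined here. H2AFX, the H2A variant phosphorylated at DNA breaks, had 80.1, 97.4, 101 and 108 CPM with inhibitors, against 41.6, 42.7, 34.5 and 21.7 CPM without, and rose by 1.46 with an SE of 0.20 (edgeR adjusted p = 9.1e-05). H2AFZ, the variant H2A.Z, rose by 1.41 with an SE of 0.22 (edgeR adjusted p = 0.000178). H1F0, the linker histone of resting and differentiated cells, had 169, 152, 121 and 117 CPM with inhibitors, against 319, 264, 288 and 385 CPM without, and fell by 1.17 on the log2 scale (edgeR adjusted p = 0.000204).

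On the ketogenic diet edgeR called none of the genes of these 5 lists for inhibitors against none, where it called 1.74% of all genes. At an unadjusted p under 0.05 it found 0 S phase genes, 4 chaperones, 2 variants, 3 processing genes and 0 mitosis genes. DESeq2 called 1 variant and 1 processing gene, both lower, against 5.45% of all genes. Limma voom called 2 chaperones, 3 variants and 2 processing genes, against 9.09% of all genes. The S phase sum was 1122, 1965, 1923 and 1768 CPM in ketogenic libraries with inhibitors, against 1988, 1988, 1659 and 1121 CPM in those without. Ketogenic libraries without inhibitors were above high fat libraries without inhibitors in 18 of 20 S phase genes by the test, against 7.99% of all genes, with a median log2 fold change of 1.18. Leaving out the 5 libraries highest in RN7SK, RMRP and RPPH1 kept 2 libraries in each of these groups. In that fit edgeR called none of the 20, but also none of all 16233 genes tested. Of the 20, 18 were at an unadjusted p under 0.05, with a median of 0.98. In the comparison of all libraries SLBP was at 60.6, 68.3, 61.7 and 48.6 CPM in ketogenic libraries, against 48.3, 47.3, 45.3 and 32.2 CPM in high fat libraries (log2 fold change 0.47, edgeR adjusted p = 0.0271).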

How the data were processed

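Poly-A RNA of 16 libraries was sequenced, and the authors deposited one table of expected (estimated) counts per gene. Per the submitters' processing notes the tools were Bowtie2 2.1.0 and RSEM 1.2.15 with build hg38. RSEM shares reads among near-identical genes. Which annotation was used, whether counting used strand, and whether mouse reads were filtered are not given. The reads were not analysed.

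The deposited estimated counts were rounded, since 13.0% were not whole. Library sizes were scaled with TMM, low genes removed with filterByExpr (16012 of 26475 kept), and edgeR 4.0.16's quasi-likelihood test fitted to all 16 libraries (R 4.3.3), with Benjamini-Hochberg adjustment over all genes tested and a threshold of 0.05. Libraries were grouped by diet and treatment as labelled, and 4 comparisons and the interaction were tested. Alternatives were DESeq2 1.42.0, limma 3.58.1 (voom), other scalings and filters, the compared libraries alone, a replicate block, covariates and leaving out libraries. The code was tested on simulated data. Libraries held 37099876 to 77251525 estimated counts.

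The members and gene lists were chosen with earlier results of these data known. Named members were those called with a mean of at least 1 CPM, the highest 2 of each class and the polyadenylated list (12), and 21 further members were named after their values were seen. For each other list the rule took the genes with the smallest p in each comparison, 33 in all, of which some are printed. Positions come from GENCODE on GRCh38, and promoters from RefSeq GRCh38.p14. Stem-loops were searched in GENCODE transcripts as 6 pairs, beginning with GG, around 4 bases beginning with TT.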

Additional observations from a re-analysis of the deposited data

Results flagged for a closer look

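In 18 cases the highest or lowest of the 4 libraries of a group stood apart from the other 3 by more than Dixon's 95% critical value; of 168 groups given to this test, chance flags about 1 in 20. Ketogenic with inhibitors replicate 4 stood apart most often, with HIST1H1E at 1.2 CPM, HIST1H2AH at 0.174 CPM, HIST1H2BB at 0.243 CPM, HIST1H2BO at 0.139 CPM, HIST1H3J at 0.903 CPM, HIST1H4B at 2.47 CPM, HIST1H4E at 3.52 CPM, HIST1H4I at 1.02 CPM and HIST2H2AC at 2.12 CPM. In the same library the class H3 sum was 13.8 CPM and the sum of RN7SK, RMRP and RPPH1 was 290.1 CPM. Ketogenic without inhibitors replicate 2 stood apart for HIST1H2AG at 1.5 CPM, HIST1H2BN at 0.857 CPM and HIST1H4B at 1.84 CPM. HIST1H3E stood apart in replicate 1 on both diets with inhibitors, at 0.622 CPM on the ketogenic and 1.02 CPM on the high fat diet. High fat with inhibitors replicate 3 stood apart for HIST2H4A and HIST2H4B at 2.47 CPM each, still below every high fat library without inhibitors.

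The inhibitor effect differed between the diets, by the test of the difference itself, for histone variants, chaperones and 1 processing gene. As ketogenic minus high fat log2 effects, the differences were 0.90 for H1F0 (edgeR adjusted p = 0.0404), −0.95 for H2AFV (adjusted p = 0.0175), −1.22 for H2AFX (adjusted p = 0.0205), −1.11 for H2AFZ (adjusted p = 0.0349), −0.89 for ASF1A (adjusted p = 0.0307), −1.06 for HAT1 (adjusted p = 0.0152), −0.66 for NASP (adjusted p = 0.0447) and 0.58 for ZNF473 (adjusted p = 0.0297). Of the S phase list 18 genes were called lower for this difference, of the chaperone list 6 and of the variant list 4, against 9.02% of all genes called. Without the 5 libraries highest in RN7SK, RMRP and RPPH1 edgeR called 0, 0 and 0 of these lists (17, 7 and 5 at an unadjusted p under 0.05) and 0.0185% of all genes, with medians of −1.17, −0.40 and −0.42 against −1.34, −0.46 and −0.42 with all libraries. With ribosomal RNA share as covariate it called 1, 0 and 0 (19, 8 and 5 at an unadjusted p under 0.05) and 0.187% of all genes. With all libraries edgeR called no histone member, with 4 at an unadjusted p under 0.05 and none by DESeq2 or limma voom.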

How the results depend on the processing

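Of all genes 42.3% were called on the high fat diet, and the 5 called members became 12 with limma voom (62.1% of all genes), 1 without libraries over 30% ribosomal RNA (23.6%), 10 with the RN7SK, RMRP and RPPH1 covariate (43.2%), 3 without the 5 libraries highest in that sum (28.8%), and 3 to 7 when 1 library was left out (33.5 to 46.9%). The 1 on the ketogenic diet, where 1.74% of all genes were called, became 4 with limma voom (all lower, 9.09%), 0 with the compared libraries alone (0.365%), 0 with the ribosomal RNA covariate (0 genes), 0 without libraries over 30% ribosomal RNA (0.324%), 0 without the 5 libraries (0.0554%), and 0 to 1 when 1 was left out (0.542 to 2.75%). The 0 for ketogenic against high fat without inhibitors became 2 with DESeq2 (19.7% of all genes), 6 with limma voom (39.9%) and 3 with the compared libraries alone (21.5%), all lower. It became 2 with the ribosomal RNA covariate (10.9%) and 6 with the RN7SK, RMRP and RPPH1 covariate (18.4%), all higher, and 0 to 2 when 1 was left out (4.79 to 19.7%). With inhibitors it was 0 under every alternative run, where 0 to 6.6% of all genes were called. For the difference of inhibitor effects it was 2 with the RN7SK, RMRP and RPPH1 covariate (10.1% of all genes) and 0 to 1 when 1 library was left out (2.51 to 16.2%). The 1 was without ketogenic with inhibitors replicate 2 (9.41%). For this difference the compared libraries alone could not be fitted. The cause of these changes was not tested. On both diets the ribosomal RNA share did not overlap between libraries with and without inhibitors, so fits with that covariate cannot separate it from the treatment.

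With the replicate block, 4 members were called for inhibitors in high fat libraries (42.6% of all genes) and 0 in ketogenic libraries (1.64%), where HIST1H2BK was at 1.41 (edgeR adjusted p = 0.0633). Deviations from the group means in libraries of the same number had correlations of −0.149 to 0.207. The labels do not say whether such libraries share anything besides the number, and these correlations cannot decide it.

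The limits of the ribosomal RNA covariate and of the RN7SK, RMRP and RPPH1 covariate given above hold for directions as well. On the high fat diet the direction turned for 40 of 61 members with the ribosomal RNA covariate, 37 of 61 with the RN7SK, RMRP and RPPH1 covariate, 33 of 59 without libraries over 30% ribosomal RNA and 24 of 49 without the 5 libraries. Among members named in the text and called in either fit, these include HIST1H1B (3.27), HIST1H1D (0.18) and HIST2H2AC (2.54) with the ribosomal RNA covariate. With the RN7SK, RMRP and RPPH1 covariate they include HIST1H2BB (2.92), HIST1H3F (2.09), HIST1H3J (1.96), HIST1H4B (1.91) and HIST2H2AC (1.61), and, in ketogenic against high fat libraries without inhibitors, HIST1H4B (1.72) and HIST1H4E (1.07). HIST1H3F also turned without the 5 libraries (2.68), and LSM10 turned for the difference of inhibitor effects with limma voom (−0.41). The inhibitor effect on HIST1H2BK kept its direction under every alternative run, but not always its call. On the ketogenic diet it was not called with limma voom (0.75, adjusted p = 0.0637) or with the compared libraries alone (1.48, edgeR adjusted p = 0.142). Nor was it called there with the replicate block (1.41, edgeR adjusted p = 0.0633) or with the ribosomal RNA covariate (1.93, edgeR adjusted p = 0.722). The ketogenic call was also lost without libraries over 30% ribosomal RNA and in some fits that left out 1 library. Without the 5 libraries it was not called on either diet. The SE of a member reached 1.58 on the high fat diet, and RN7SK, RMRP and RPPH1, at higher levels, had a median SE of 1.4 there.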
